A study of Mus musculus with 12 samples.

Results

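The transcripts described here are 10 mRNAs of the integrated stress response, the pathway controlled by the transcription factor ATF4. They are the secreted factors *Fgf21* and *Gdf15*, the transcription factors *Atf4*, *Atf5* and *Ddit3*, the pseudokinase gene *Trib3*, and the biosynthetic enzymes *Asns*, *Phgdh*, *Psat1* and *Mthfd2*. They were taken by gene symbol, as known members of this pathway, when earlier results of these data were already known, and are 10 of the 27179 mouse genes in the count table. All 10 passed edgeR's filter on low counts and were tested with 15502 genes in all.

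The experiment asked what forced expression of the human long noncoding RNA *FRAIL1* does to mouse skeletal muscle. Tibialis anterior (TA) muscles of male wild-type (WT) C57BL/6N mice, obtained at 6 to 8 weeks of age and used within 2 weeks, were electroporated with 10 μg of plasmid. The 6 Control muscles received the empty plasmid pcDNA3.1(+), and the 6 *FRAIL1* muscles received the same plasmid carrying full-length *FRAIL1* cDNA behind its cytomegalovirus promoter. Both TAs of a mouse were taken after 7 days, and poly(A) RNA of the whole muscle was sequenced. Both groups therefore share the injection, the enzyme given before it and the electric pulses, no muscle without them was part of the comparison, and electroporation reaches only some of the fibers. *FRAIL1* is a human transcript and is not among the mouse genes counted, so its level could not be checked here.

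Cells sense amino acid shortage, unfolded proteins, heme shortage and mitochondrial dysfunction through kinases that phosphorylate the translation initiation factor eIF2. This slows protein synthesis in general but favors translation of the *Atf4* mRNA, so ATF4 protein can rise without more *Atf4* mRNA. ATF4, often with a C/EBP partner, then switches on genes for amino acid synthesis and uptake, and in skeletal muscle with mitochondrial defects the hormones FGF21 and GDF15 are well-known products of this response.

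Total counts ranged from 45018389 to 59309210 in Control muscles and from 44848322 to 60527385 in *FRAIL1* muscles. Muscle fiber markers such as creatine kinase and fast myosins made up 130000 to 153000 CPM (counts scaled to a common library size with edgeR's TMM factors) in Control and 102000 to 137000 CPM in *FRAIL1* muscles. Markers of regenerating fibers and satellite cells summed to 209 to 270 CPM in Control and 430 to 1760 CPM in *FRAIL1* muscles. Fibroblast markers summed to 1290 to 2300 CPM and 2420 to 6540 CPM, and macrophage and monocyte markers to 275 to 444 CPM and 346 to 866 CPM. *FRAIL1* muscle 5 stood apart from the other libraries, with the highest sums of fibroblast and regeneration markers (787 CPM was the highest regeneration sum among the other *FRAIL1* muscles) and the lowest share of counts from mitochondrial genes (6.58%, against 7.54% or more in the other 11). In whole muscle, more or fewer cells of a type and more or less RNA per cell cannot be told apart.

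Of the 10 mRNAs, *Fgf21*, *Asns* and *Psat1* were higher and *Atf4* was lower in *FRAIL1* muscles at a threshold of 0.05 on the adjusted p-value, computed with the quasi-likelihood test of edgeR and the Benjamini-Hochberg method over all genes tested. These 4 of 10 genes, or 40%, stand against 974 of 15502 genes (6.28%) that passed the same threshold, 687 of them higher (4.43%) and 287 lower (1.85%). The median log2 fold change of the 10 was 0.68, against 0.010 for all genes tested, and 8 of the 10 fold changes were positive, against 51.6% of all genes. *Atf4* was the 1 gene of the 10 whose Control and *FRAIL1* values did not overlap, and 757 of all genes tested (4.88%) had that property. An unadjusted p-value under 0.05 was reached by 7 of the 10 and by 27.7% of all genes. Here and below, muscles of equal number were treated as 1 mouse, a link the labels do not state. *Gdf15*, *Phgdh* and *Mthfd2* had the higher level on the *FRAIL1* side in 6 of 6 mice without passing the threshold, and *Atf5*, *Ddit3* and *Trib3* had adjusted p-values of 0.398 or more. With the mouse as a block, which compares the muscles of 1 mouse with each other, *Gdf15* and *Mthfd2* passed as well, making 6 of 10 where 2186 of all genes (14.1%) passed, 7.48% higher and 6.62% lower.

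**Figure D1:**
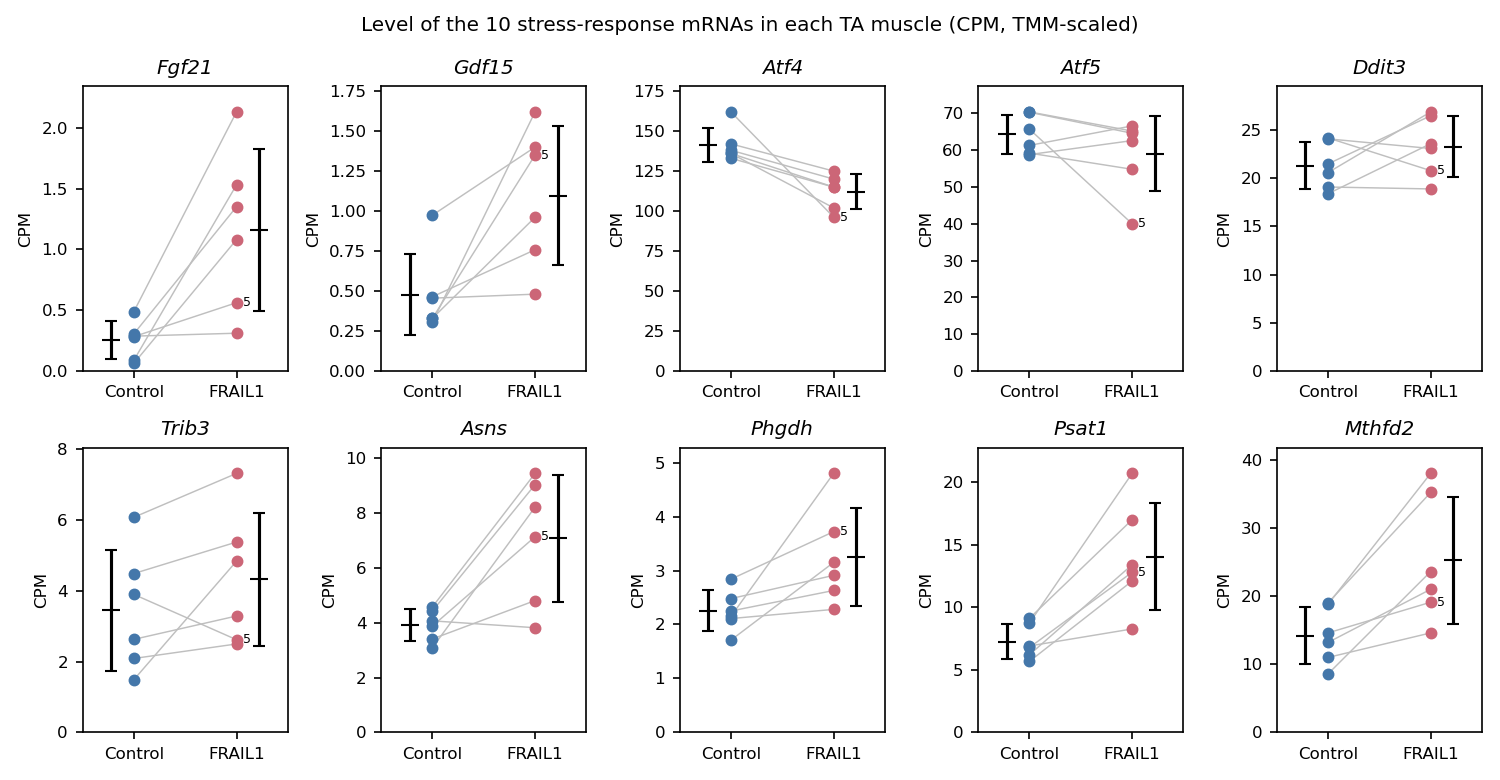
Level of each of the 10 mRNAs in every muscle, in CPM on a linear axis that starts at 0 and has its own scale for each gene. Gray lines join muscles of equal number, treated as 1 mouse, black bars give mean ± SD (n = 6 muscles), and *FRAIL1* muscle 5 is marked. For *Fgf21*, 5 of the 6 *FRAIL1* points lie above the highest Control point at 0.488 CPM, and for *Atf4* all 6 lie below the lowest Control point at 133 CPM.

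The element through which ATF4 acts, the C/EBP-ATF composite element, was searched as TGATGNAAN on both strands of the stretch from 250 bases before to 50 bases after each gene's start in RefSeq (GRCm38.p6). All 10 genes had a promoter entry, and 3 of 10 (30%) held the letters. They occurred in 1299 of 32851 promoters (3.95%). Counted by gene, they occurred in 328 of the 11778 tested genes that had a promoter entry (2.78%). The windows of *Fgf21* (chr7:45615597-45615655, minus strand of GRCm38.p6) and *Asns* (chr6:7693210-7693257, minus strand), a hormone and an enzyme gene that both rose, are printed 5′ to 3′ in the direction of the gene. Capitals mark the match, which reads TGATGCAAT on the opposite strand for *Fgf21*, 140 bases before the start, and TGATGAAAC on the gene's own strand for *Asns*, 23 bases before it.
*Fgf21*: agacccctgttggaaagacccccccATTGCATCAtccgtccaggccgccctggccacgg
*Asns*: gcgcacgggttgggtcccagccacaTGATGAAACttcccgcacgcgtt
The third gene was *Trib3*, with a match 13 bases after its start, and *Trib3* did not pass the threshold in muscle. *Psat1*, which rose, and *Phgdh*, *Mthfd2*, *Gdf15*, *Atf4*, *Atf5* and *Ddit3* held no match in these windows, and the one window of *Mthfd2* lies inside its gene. A match says only that the letters are there, and binding was not measured.

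*Fgf21* encodes a hormone that liver, and muscle under stress, release into the blood and that acts on metabolism through FGF receptors and the co-receptor β-Klotho. The gene (Gene ID 56636) spans 45613890 to 45615490 of chromosome 7 (GRCm38, minus strand). In the Control muscles numbered 1 to 6 it measured 0.488, 0.286, 0.0621, 0.305, 0.282 and 0.0878 CPM, and in the *FRAIL1* muscles 2.13, 0.31, 1.08, 1.35, 0.561 and 1.53 CPM. Every *FRAIL1* muscle was above the Control muscle of its number, by a log2 ratio of 0.12 in mouse 2 and of 4.12 in mice 3 and 6, but *FRAIL1* muscle 2 lay inside the Control range. These levels rest on few reads, 3 to 24 counts in Control and 18 to 109 counts in *FRAIL1* muscles. The mean rose from 0.252 ± 0.157 CPM (SD, n = 6) to 1.16 ± 0.664 CPM (SD, n = 6), with a log2 fold change of 2.18 (standard error 0.493, 95% interval 1.13 to 3.24) and an adjusted p-value of 0.0229 in edgeR's test. It was the highest fold change of the 10. The call ended without Control muscle 2 (log2 fold change 2.22, adjusted p = 0.0506) and without *FRAIL1* muscle 1 (1.92, adjusted p = 0.0544), and over those and the other 21 alternatives that tested it the adjusted p-value ran from 4.6e-05 to 0.0544.

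*Gdf15* encodes a stress-induced cytokine of the TGF-β superfamily that lowers food intake through a receptor in the brainstem. The gene (Gene ID 23886) spans 70629393 to 70632470 of chromosome 8. Its levels in Control muscles 1 to 6 were 0.305, 0.464, 0.455, 0.974, 0.329 and 0.329 CPM, and in *FRAIL1* muscles 1.62, 0.758, 0.48, 1.4, 1.35 and 0.961 CPM. Control muscle 4 was the high one of its group and lay above 3 of the 6 *FRAIL1* values, while the other 5 Control muscles lay below all 6. The means were 0.476 ± 0.254 CPM and 1.09 ± 0.434 CPM (SD, n = 6 each, 14 to 83 counts), and the fitted log2 fold change 1.19 (standard error 0.343, 95% interval 0.46 to 1.92). The adjusted p-value of edgeR's test was 0.0516, just above the threshold, and 0.0318 with the mouse as a block (log2 fold change 1.18). It was also under 0.05 without Control muscle 4 (0.0265), without *FRAIL1* muscle 2 (0.0396) or without *FRAIL1* muscle 3 (0.0187), and over all 24 alternatives it ran from 0.00447 to 0.124.

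*Atf4* (Gene ID 11911, chromosome 15 from 80255184 to 80257545) encodes the transcription factor at the center of the response. It measured 133 CPM at the lowest, 137 CPM at the median and 162 CPM at the highest in Control muscles, and 96.2, 115 and 125 CPM in *FRAIL1* muscles. The groups did not overlap, and the *FRAIL1* muscle was lower in 6 of 6 mice, by log2 ratios from -0.18 in mouse 4 to -0.75 in mouse 5. Mean *Atf4* mRNA fell from 141 ± 10.4 to 112 ± 11 CPM (SD, n = 6 each), a log2 fold change of -0.33 with a standard error of 0.0727 (95% interval -0.48 to -0.17, adjusted p = 0.0203 in edgeR's test). It was under 0.05 in 24 of 24 alternatives, between 8.6e-04 and 0.0449. The change was opposite in sign to those of *Fgf21*, *Asns* and *Psat1*, and ATF4 protein was not measured in these muscles.

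The mRNAs of the other transcription factors did not pass the threshold in any alternative. *Atf5* (Gene ID 107503, chromosome 7 from 44812256 to 44816658), whose product controls mitochondrial stress genes, measured 64.3 ± 5.3 CPM in Control and 59 ± 10.2 CPM in *FRAIL1* muscles (SD, n = 6 each). Its log2 fold change was -0.12 (95% interval -0.35 to 0.10, adjusted p = 0.47), with *FRAIL1* muscle 5 lowest at 40 CPM and group medians of 63.5 and 63.6 CPM. *Ddit3* (Gene ID 13198, chromosome 10 from 127290793 to 127296291), which encodes the pro-apoptotic factor CHOP, measured 21.3 ± 2.44 and 23.3 ± 3.13 CPM (SD, n = 6 each), a log2 fold change of 0.13 (95% interval -0.07 to 0.33, adjusted p = 0.398), and was higher in 3 mice and lower in 3. Parts of both genes' exons, 4.11% for *Atf5* and 10.9% for *Ddit3*, overlap other genes.

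*Trib3* (Gene ID 228775, chromosome 2 from 152337425 to 152344060) encodes a pseudokinase that restrains ATF4 and CHOP and is itself a target of both. It varied widely within each group, from 1.49 through a median of 3.27 to 6.08 CPM in Control and from 2.5 through 4.07 to 7.32 CPM in *FRAIL1* muscles. *FRAIL1* muscles were higher in 5 of 6 mice, the exception being mouse 5 with a log2 ratio of -0.58. The fitted log2 fold change, 0.32 (standard error 0.351, adjusted p = 0.581), had an interval of -0.43 to 1.08, which reaches from a fall to a rise larger than that of *Psat1*.

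The enzymes *Psat1*, *Asns*, *Mthfd2* and *Phgdh* all had higher means in *FRAIL1* muscles. *Psat1* (Gene ID 107272, chromosome 19 from 15905123 to 15925059), which makes phosphoserine in the serine pathway, measured 5.68, 6.85 and 9.12 CPM (lowest, median, highest) in Control and 8.27, 13.1 and 20.7 CPM in *FRAIL1* muscles. Only *FRAIL1* muscle 2 lay within the Control range, and *FRAIL1* was higher in 6 of 6 mice. The mean rose from 7.24 ± 1.39 to 14 ± 4.3 CPM (SD, n = 6 each), a log2 fold change of 0.95 (standard error 0.192, 95% interval 0.54 to 1.37, adjusted p = 0.0164 in edgeR's test). This call held in 24 of 24 alternatives, with adjusted p-values up to 0.0472.

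*Asns* (Gene ID 27053, chromosome 6 from 7675165 to 7693209), asparagine synthetase, measured 3.09, 3.97 and 4.58 CPM (lowest, median, highest) in Control and 3.82, 7.68 and 9.45 CPM in *FRAIL1* muscles. *FRAIL1* muscle 2 was the one within the Control range, and the *FRAIL1* muscle was higher in 5 of 6 mice, with a log2 ratio of -0.09 in mouse 2. The mean rose from 3.91 ± 0.575 to 7.08 ± 2.3 CPM (SD, n = 6 each), a log2 fold change of 0.85 (standard error 0.202, 95% interval 0.42 to 1.28, adjusted p = 0.0278 in edgeR's test). The call ended in 7 of 12 fits that left out 1 muscle, at adjusted p-values of 0.0558, 0.0656, 0.0557 and 0.0575 without Control muscles 2, 3, 5 and 6 and of 0.0637, 0.0581 and 0.0533 without *FRAIL1* muscles 1, 4 and 6. It held with the mouse as a block, at 0.0167.

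*Mthfd2* (Gene ID 17768, chromosome 6 from 83305704 to 83326011), the mitochondrial folate enzyme, measured 8.58, 13.9 and 19 CPM (lowest, median, highest) in Control and 14.6, 22.3 and 38 CPM in *FRAIL1* muscles. The groups overlapped, yet the *FRAIL1* muscle was higher in 6 of 6 mice, by log2 ratios from 0.39 to 1.46. The means were 14.2 ± 4.17 and 25.2 ± 9.31 CPM (SD, n = 6 each) and the log2 fold change 0.83 (standard error 0.259, 95% interval 0.26 to 1.39). The adjusted p-value was 0.0714 in edgeR's test and 0.0104 with the mouse as a block (log2 fold change 0.80). Without *FRAIL1* muscle 2 it was 0.0354.

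*Phgdh* (Gene ID 236539, chromosome 3 from 98313171 to 98339969), which catalyzes the first step of serine synthesis, had means of 2.26 ± 0.381 and 3.25 ± 0.904 CPM (SD, n = 6 each). The *FRAIL1* muscle was higher in 6 of 6 mice, most in mouse 6 with a log2 ratio of 1.16. The log2 fold change was 0.53 (standard error 0.18, 95% interval 0.14 to 0.91, adjusted p = 0.0811), with 0.0579 under the block and 0.0351 without *FRAIL1* muscle 3. The pseudogene *Gm7901* matches 84.3% of the transcript at 98% identity or more. Reads there that fit both equally well would be left out, since uniquely mapped reads were counted. The effect on the *Phgdh* level was not tested.

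**Figure D2:**
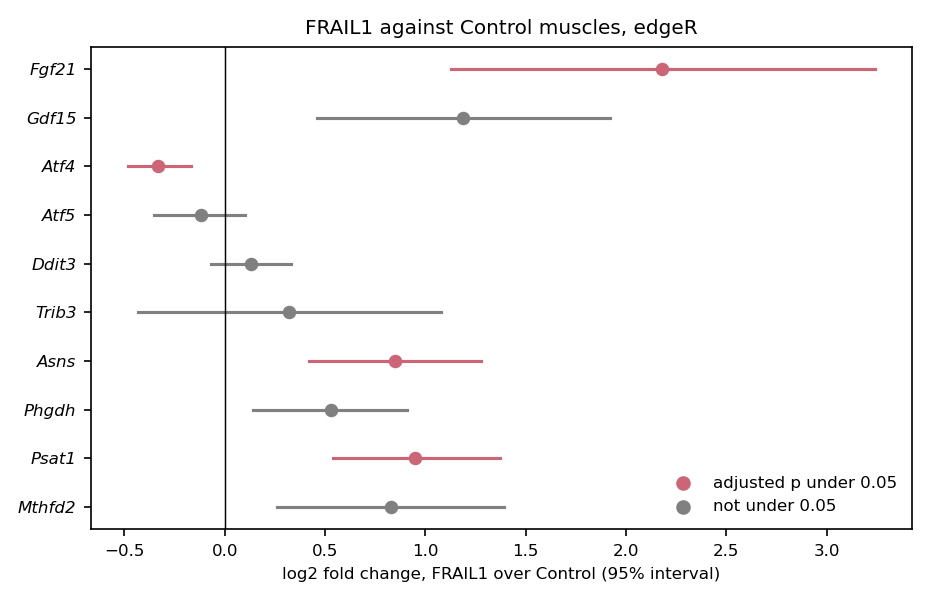
Log2 fold change of each of the 10 mRNAs, *FRAIL1* over Control, from edgeR's fit of 12 muscles, with 95% intervals as bars and the 4 genes with an adjusted p-value under 0.05 in color. *Fgf21* is farthest right at 2.18 with the widest interval, and *Atf4* is the one colored point left of 0, at -0.33.

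Per length of exon, the transcription factors were the most abundant of the 10 mRNAs and the secreted factors the least. In Control muscles *Atf4* measured 59.9 ± 4.43 CPM per kilobase (SD, n = 6), followed by *Atf5* at 32.3, *Ddit3* at 12.5 and *Mthfd2* at 4.07 CPM per kilobase. *Psat1* (1.7), *Trib3* (1.62) and *Asns* (1.43) had overlapping ranges, *Trib3* also reached the lowest *Mthfd2* value and *Phgdh* (0.908) the lowest *Asns* value. *Fgf21* and *Gdf15* were the least abundant and not distinct from each other, at 0.265 ± 0.165 and 0.257 ± 0.137 CPM per kilobase. In *FRAIL1* muscles the order differed only in that *Asns* (2.59) stood above *Trib3* (2.03), and *Fgf21*, at 1.22 ± 0.699, was close to *Phgdh* at 1.31 ± 0.364 CPM per kilobase.

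*Fgf21*, *Trib3* and 3 of the enzyme mRNAs varied together between muscles of 1 group. After group means were removed, log2 CPM of *Fgf21*, *Trib3*, *Mthfd2*, *Psat1* and *Asns* had pairwise Pearson correlations of 0.72 to 0.93 over the 12 muscles, highest between *Trib3* and *Mthfd2* (0.93) and between *Psat1* and *Mthfd2* (0.90). *FRAIL1* muscle 2 was the lowest of its group for all 5, and *FRAIL1* muscle 1 was the highest for all but *Mthfd2*. *Atf4* mRNA did not follow them, with correlations between -0.08 and 0.36, and varied more with *Atf5* (0.56) and *Ddit3* (0.51). *Fgf21* and *Gdf15*, both released under the same kinds of stress, had a correlation of 0.21. The points share library scaling and tissue make-up, and the values are given as a description.

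**Figure D3:**
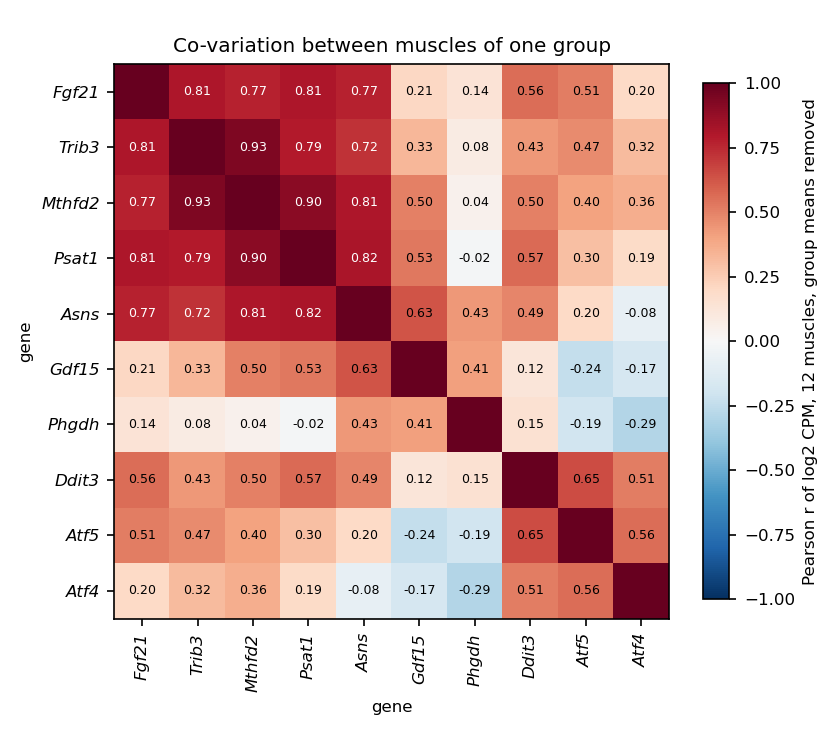
Pearson correlation of log2 CPM between each pair of the 10 mRNAs over 12 muscles after the mean of each group was removed; red is positive, blue negative, and the value is printed in each cell. *Fgf21*, *Trib3*, *Mthfd2*, *Psat1* and *Asns* form a block with values of 0.72 to 0.93, and *Atf4* has values of -0.08 to 0.36 with these genes.

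The levels of several of these mRNAs also moved with marker genes of other cells. Over the same 12 muscles with group means removed, the summed macrophage and monocyte markers had correlations of 0.79 with *Asns*, 0.74 with *Gdf15*, 0.72 with *Psat1*, 0.70 with *Mthfd2*, 0.60 with *Trib3* and 0.52 with *Fgf21*, and of 0.08 with *Atf4*. The summed regeneration markers, of which 8 of 11 were called higher with a list median of 1.46 on the log2 scale, had correlations of 0.54 with *Gdf15*, 0.53 with *Asns*, 0.49 with *Phgdh*, 0.28 with *Psat1*, 0.07 with *Fgf21*, -0.51 with *Atf4* and -0.66 with *Atf5*. Of the 14 macrophage and monocyte markers, 12 had positive and 2 negative log2 fold changes, with a list median of 0.64. Among these 14 *Cx3cr1* alone passed the threshold, and *Cd68* went from 15.1 to 31.4 CPM with an adjusted p-value of 0.085. None was at 0 in all muscles. *Atf4* had a correlation of 0.74 with the summed muscle fiber markers and of -0.52 with fibroblast markers. Of the 10 fiber markers, 3 had positive and 7 negative log2 fold changes, with a list median of -0.19. *Ckm* alone of these 10 passed the threshold, with a log2 fold change of -0.38. The part of these cells in the differences was not tested. Without both muscles numbered 5, the number that held the library that stood apart, *Fgf21*, *Atf4* and *Psat1* passed and *Asns* had an adjusted p-value of 0.0693.

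Among the genes that varied most like single members over the 12 muscles, *Fgf21* was closest to *Mrpl22* (0.89), *Nle1* (0.86) and *Abhd12* (0.84), and *Gdf15* to *Pip4k2a* (0.95), *Sema4b* (0.93) and *Tmem50a* (0.92). *Psat1* was closest to *Alyref2* (0.92), *Ran* (0.90) and *Vsir* (0.88). *Asns* was closest to *Tlr8* (0.91), *Lacc1* (0.90) and *Slc15a3* (0.90), and *Atf4* to *Med20* (0.94), *Abhd8* (0.93) and *Smg5* (0.92). These values are the highest among all genes tested and are a description.

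Beyond the 10 mRNAs, 10 lists of related genes were examined, with 167 genes of which 162 were tested. In the fit without the block 7 of these were higher (4.32%, against 4.43% of all genes tested) and 8 were lower (4.94%, against 1.85%) with an adjusted p-value under 0.05. With the mouse as a block 19 were higher (11.7%, against 7.48%) and 22 were lower (13.6%, against 6.62%), and genes this added are named by list. The list medians lay between -0.08 and 0.11 on the log2 scale, against 0.68 for the 10.

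In the serine and one-carbon list, 0 of 11 genes passed in edgeR's quasi-likelihood test (3 had an unadjusted p under 0.05), with a median of 0.11. Its gene with the smallest p was *Shmt2*, the mitochondrial serine hydroxymethyltransferase, at 34.4 ± 1.64 and 38.8 ± 2.13 CPM (SD, n = 6 each), with an adjusted p-value of 0.0572 and of 0.0383 with the mouse as a block. With the block *Mthfd1l* was called higher as well, and 0 were called lower. Among 11 tested genes of other amino acid synthesis, *Pycr1*, which makes proline, rose from 4.01 ± 0.56 to 6.46 ± 1.43 CPM (log2 fold change 0.69, adjusted p = 0.0175). *Gpt2*, the mitochondrial alanine aminotransferase, fell from 243 ± 35.9 to 178 ± 31.4 CPM (log2 fold change -0.44, adjusted p = 0.0459), and *Got1*, the list's most abundant gene per length, had an adjusted p-value of 0.103 with groups that did not overlap. With the block *Pycrl* and *Aldh18a1* were called higher and *Bcat2* lower as well.

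Among 13 amino acid transporters, 3 rose and 1 fell, with the block and without it. *Slc7a5*, which carries leucine, rose from 8.16 ± 1.47 to 12.1 ± 2.47 CPM (log2 fold change 0.56, adjusted p = 0.0354). *Slc38a1*, a glutamine carrier, rose from 5.24 ± 0.893 to 10.5 ± 4.32 CPM (adjusted p = 0.0326), and *Slc7a3*, a carrier of arginine, from 0.168 ± 0.0501 to 0.468 ± 0.165 CPM (1.46, adjusted p = 0.0203) with no overlap between groups. The *Slc7a3* levels rest on few reads, 4 to 34 counts per muscle. *Slc43a1*, another carrier of large neutral amino acids, fell from 20.6 ± 2.53 to 14.1 ± 3.22 CPM (-0.55, adjusted p = 0.0451), while the most abundant transporter per length, *Slc38a3*, had a log2 fold change of -0.23 and an adjusted p-value of 0.16.

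The cytosolic tRNA synthetases, many of them known ATF4 targets, held 0 genes of 20 that rose in either fit, and *Yars* fell, from 58.7 ± 2.78 to 50.4 ± 3.12 CPM (log2 fold change -0.22, adjusted p = 0.0324). The list had a median of -0.05, and its most abundant gene per length, *Nars*, had a log2 fold change of -0.03. With the block 4 were called lower, *Yars*, *Aars*, *Wars* and *Mars1*. The element searched above was in 5 of 13 genes of this list that had a promoter entry (38.5%). It was in 6 of 18 such genes (33.3%) among other ATF4 and CHOP targets. In that latter list of 20 genes, *Cdkn1a*, which encodes the cell cycle inhibitor p21 and answers to p53 as well, rose from 43.8 ± 12.6 to 89 ± 23.3 CPM (1.02, adjusted p = 0.0177). Part of its exons, 7.68%, overlaps *AC167363.2*. *Cebpg*, a C/EBP partner of ATF4, fell from 67.6 ± 6.07 to 53.8 ± 7.32 CPM (-0.33, adjusted p = 0.0425), *Herpud1* had an adjusted p-value of 0.102, and *Chac1* measured 35.1 ± 21.3 and 22.2 ± 11.6 CPM with an adjusted p-value of 0.345. With the block 3 of the 20 were called higher, *Atf3*, *Stc2* and *Cdkn1a*, and 3 lower, *Cebpg*, *Chac1* and *Vldlr*.

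Upstream of ATF4, a list of 21 genes held eIF2 kinases, subunits of eIF2 and eIF2B, genes of the eIF2 phosphatase and related regulators. Of these, 0 passed in edgeR's test (7 had an unadjusted p under 0.05, and DESeq2's Wald test called 2, both lower). With the mouse as a block edgeR called 4, all lower, which were *Eif2s2*, *Gcn1*, *Ppp1cb* and *Ppp1cc*. The median was -0.04, and *Ppp1cc*, a catalytic subunit of the phosphatase, had the smallest p, at 29.3 ± 3.98 and 23.4 ± 2.84 CPM (adjusted p = 0.0572, and 0.0107 with the block), and 59.2% of its transcript matches the copy *Ppp1ccb*. The most abundant of the 21 per length, *Ppp1ca*, had a log2 fold change of 0.06 (adjusted p = 0.426), and 16.5% of its exons overlap other genes. Of 16 genes of mitochondrial protein quality control, *Spg7*, a subunit of an inner membrane protease, fell from 133 ± 4.04 to 111 ± 10.5 CPM (-0.26, adjusted p = 0.0348) and 0 rose. The most abundant of these 16 per length, *Hspa9*, had a log2 fold change of -0.10 (adjusted p = 0.317). The stress relay genes *Oma1* and *Dele1*, which belong to the 21 genes above, had log2 fold changes of -0.23 and -0.22. Their adjusted p-values in edgeR's test were 0.0839 and 0.111. Of 25 tested genes of the unfolded protein response of the endoplasmic reticulum, 0 rose in the fit without the block and *Dnajb9* fell from 46 ± 7.84 to 34.4 ± 4.2 CPM (-0.42, adjusted p = 0.0339). *Hspa5*, which encodes the chaperone BiP, measured 222 ± 27.5 and 186 ± 6.25 CPM with no overlap, at an adjusted p-value of 0.0548 and of 0.0378 with the block, which also called *Creb3l1* higher.

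The receptors for FGF21 and GDF15 were present in unequal amounts. *Klb*, the co-receptor FGF21 needs, had 0 to 7 counts per muscle and was not tested, and *Gfral*, the brainstem receptor of GDF15, had 0 counts in all 12 muscles, which allows up to 0.0514 to 0.0705 CPM. *Fgfr4* rose from 5.4 ± 0.896 to 11.1 ± 5.63 CPM (log2 fold change 1.04, adjusted p = 0.0336), *Kl*, the co-receptor of another hormone of the FGF family, fell from 0.553 to 0.192 CPM (adjusted p = 0.0355), and *Fgfr1* had an adjusted p-value of 0.0572, or 0.0276 with the block. Among 19 other tested myokines and growth factors, *Tgfb1* rose from 11.1 ± 1.4 to 17.8 ± 3.95 CPM (0.68, adjusted p = 0.0149) and *Fgf2* fell from 0.3 ± 0.0833 to 0.0966 ± 0.066 CPM (-1.58, adjusted p = 0.0376), the latter with 13.2% of its exons overlapping *Nudt6* or *Gm43439*. Both *Kl* (4 to 36 counts per muscle) and *Fgf2* (1 to 21 counts) rest on few reads. *Vegfa*, the most abundant of them per length, had an adjusted p-value of 0.0674, or 0.0405 with the block, which called 4 of the 19 higher, *Tgfb1*, *Sparc*, *Metrnl* and *Angptl4*, and 4 lower, *Fgf2*, *Vegfa*, *Mstn* and *Cxcl12*.

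Of these 15 list genes, *Pycr1*, *Tgfb1* and *Cdkn1a* passed in each of 12 fits that left out 1 muscle, and *Slc7a3* in 11, with an adjusted p-value of 0.0518 without *FRAIL1* muscle 1. The other 11 passed in 3 to 7 of 12, with highest adjusted p-values from 0.0676 for *Slc38a1* to 0.0944 for *Cebpg*. Each of the 6 Control muscles and *FRAIL1* muscles 1, 4, 5 and 6 ended at least 1 of these calls when left out, and *FRAIL1* muscles 2 and 3 ended none. *Cdkn1a* had an adjusted p-value of 0.0644 without both muscles numbered 5.

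**Figure D4:**
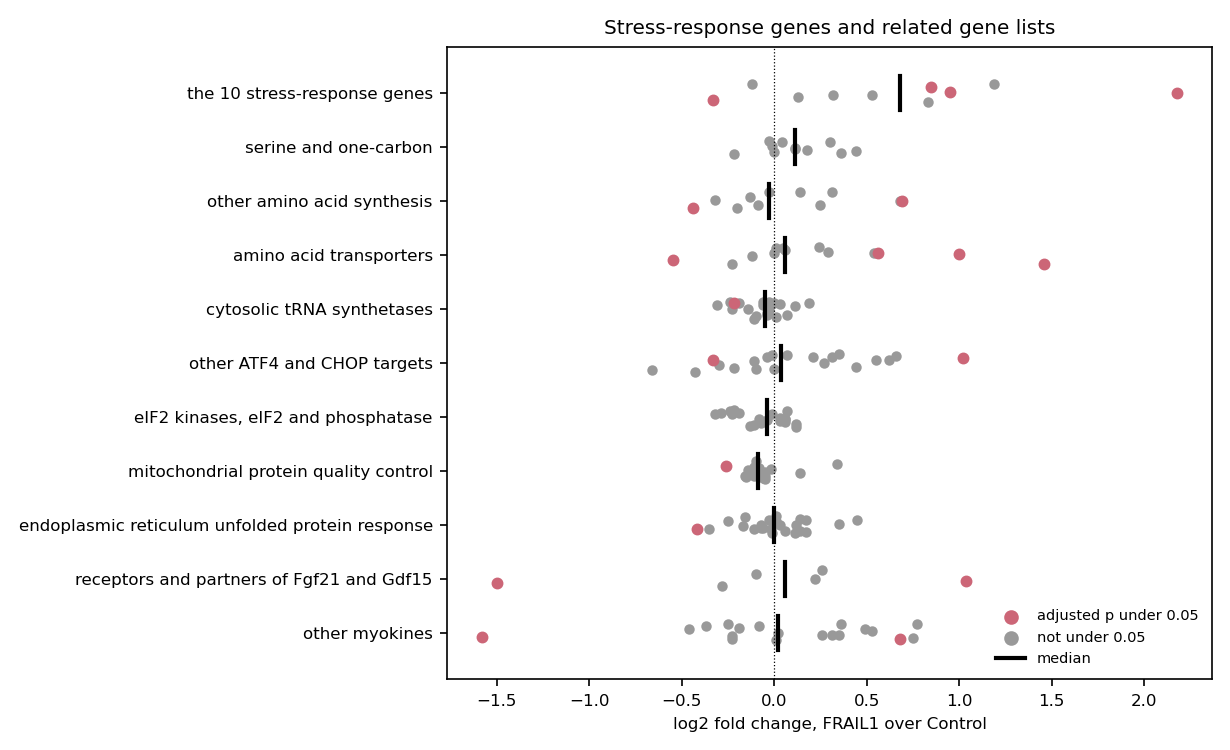
Log2 fold change, *FRAIL1* over Control, of every tested gene in the 10 stress-response mRNAs and in the 10 related lists; a point is a gene, colored where the adjusted p-value was under 0.05, and a black line marks each median. The median of the 10 mRNAs lies at 0.68 and those of the lists between -0.08 and 0.11.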

How the data were processed

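RNA-seq counts of 12 TA muscles, 6 Control and 6 *FRAIL1*, were analysed. The deposited values are raw read counts for each gene, which the authors made with Trimmomatic, STAR 2.7.8a (mm10) and featureCounts 2.0.1, using uniquely mapped paired-end reads, without normalization. The strand setting is not given in the sources used here. Of 27179 Gene IDs, 25275 were given a symbol and place by RefSeq for GRCm38, and the rest took 0.28% of all counts. Exon lengths and overlaps came from GENCODE for GRCm38. No 2 libraries of the same group were copies (chi-square per degree of freedom 14.5 or more). Libraries of different groups were not compared in this way.

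Genes were filtered with filterByExpr, scaled with TMM and compared in R 4.3.3 with edgeR 4.0.16 (glmQLFit, robust, and glmQLFTest, its quasi-likelihood test) at a Benjamini-Hochberg adjusted p under 0.05 over 15502 genes. CPM use the TMM-scaled totals. The fits were tested on simulated data. Depth limits mainly genes with few counts, and the limit from 0 counts (3 counts) covers counting error only.

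Muscles carry numbers 1 to 6 in both groups. Since the study describes 6 mice with 1 plasmid in each leg, equal numbers were treated as 1 mouse, a link the labels do not state. Deviations from group means correlated between equal numbers at 0.254, 0.162, 0.282, 0.263, 0.0547 and 0.185.

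The 10 genes and all lists were chosen with earlier results of these data known. Genes named were all 10, and each list gene with an adjusted p under 0.05. From each list the most abundant gene per kilobase and the gene with the smallest p were also named. Added were the 3 genes outside the 10 most correlated with *Fgf21*, *Gdf15* and each called member. *Chac1*, *Oma1*, *Dele1*, *Klb*, *Gfral*, *Cd68* and the further list genes called with the block were named after their values were seen. Copies were searched with BLAST 2.17.0 (98% identity over 100 bases). Alternatives were the mouse as a block, other scalings and filters, each muscle left out, limma 3.58.1 voom and DESeq2 1.42.0. Leaving out both muscles numbered 5 with the block was added after seeing the data.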

Additional observations from a re-analysis of the deposited data

Results flagged for a closer look

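In 20 groups of 6 muscles, 10 genes in each of 2 conditions, the distance of the highest or lowest muscle from its nearest neighbor was compared with Dixon's critical value, which chance passes in about 1 of 20 groups. Control muscle 4 stood apart for *Gdf15*, at 0.974 CPM against 0.464 CPM in the next Control muscle, a gap of 0.763 of the group's range. Without that muscle the adjusted p-value of *Gdf15* was 0.0265 in edgeR's test. Control muscle 5 stood apart for *Atf4*, at 162 CPM against 142 CPM in the next, a gap of 0.702 of the range. Its partner, *FRAIL1* muscle 5, had the lowest *Atf4* level at 96.2 CPM, and the fall of *Atf4* passed the threshold without either muscle.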

How the results depend on the processing

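Of 239 values of the 10 mRNAs under 24 alternatives, 211 kept their direction and their side of the threshold, 10 lost the call, 18 gained it and 0 changed sign. *Atf4* and *Psat1* passed in all 24, and *Atf5*, *Ddit3* and *Trib3* in none, with *Ddit3* at 0.0904 or more. The number of all genes called, 974, was 2186 with the mouse as a replicate block (936 of the 974 among them), 1756 with limma voom, 2232 with DESeq2, 2898 with DESeq2 and the block, and 2305 with the block and without both muscles numbered 5, a setting chosen after seeing the data. It lay between 364 and 2110 when 1 muscle was left out. Of the 10 mRNAs, 7 were called by DESeq2 with or without the block, 6 by edgeR with the block, and between 2 and 6 when 1 muscle was left out, with 2 without Control muscle 2 or *FRAIL1* muscle 1. In the 10 related lists the block called 41 genes against 15. The log2 fold change of the tRNA synthetase gene *Nars*, -0.03, lay between -0.05 and 0.00 when 1 muscle was left out, turning sign at 0.00 without *FRAIL1* muscle 5. The cause of these shifts was not tested. The median log2 fold change of all genes lay between 0.001 and 0.021 under every alternative. *Fgf21*, with 3 counts in 1 Control muscle, could not be tested under the filter of at least 10 counts in every muscle.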
